A study of Mus musculus with 9 samples.

Results

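The nuclear genes of oxidative phosphorylation were followed in whole lung of mice given interleukin-33 (IL-33), with and without LM8. The members were chosen by name, as genes called Nduf (families a, b, c, s and v), Sdha to Sdhd, Uqcr, Cox4 to Cox8 with an isoform letter, or Atp5, leaving out names marked as pseudogenes. This gave 85 of the 34638 genes in the table, and 82 of them reached a mean of 0.5 FPKM (fragments scaled to transcript length and library size) over the 9 mice and were tested. Cox6c2, Ndufa11b and Ndufs6b stayed under that level. These 3 and Ndufb4c are typed as processed pseudogenes in the table and were kept apart from the complexes, 4 members in all. The other 81 members were 7 core and 29 accessory subunits of complex I, 4 subunits of complex II, 8 of complex III, 15 of complex IV counting Ndufa4 and Ndufa4l2, 17 of ATP synthase, and Cox7a2l, a factor that joins complexes III and IV into supercomplexes.

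Oxidative phosphorylation makes ATP in the inner mitochondrial membrane. Complexes I and II feed electrons from NADH and succinate to ubiquinone, complex III passes them to cytochrome c, complex IV hands them to oxygen, and ATP synthase uses the proton gradient so built. Most subunits are encoded in the nucleus and a small core by mitochondrial DNA, and complex IV in particular swaps some subunits for paralogues in heart, muscle, testis or lung.

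All mice were wild type C57BL/6. The PBS group (n = 3) received the carrier into the trachea, the IL-33 group (n = 3) received 0.5 µg of recombinant mouse IL-33 on days 0, 1, 2 and 3, and the IL-33+LM8 group (n = 3) received 10 mg/kg LM8, described as an inhibitor of the adaptor MyD88, into the peritoneum before the same IL-33. The study's methods give collection on day 4 and female mice of 6 to 8 weeks for the PBS and IL-33 groups, and do not describe the IL-33+LM8 group. Each sample is labelled as a separate lung, but nothing states how the animals were housed or dosed together, so the p-values measure the spread between these samples.

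The libraries held 53877663 to 90607218 counts. Markers of lung epithelium were abundant, with summed FPKM of club cell markers of 21640 to 23704 in PBS, 8453 to 9494 in IL-33 and 17070 to 18455 in IL-33+LM8 mice, and of alveolar type 2 cell markers of 12965 to 14057, 6842 to 7045 and 11359 to 12487. The deepest libraries of the groups were PBS replicate 3, IL-33 replicate 1 and IL-33+LM8 replicate 3. They deviated from their group means in the same way across genes (correlations 0.73, 0.73 and 0.76), so the main counts are also given without these 3 libraries. Each comparison then loses the deepest library of its 2 groups, which leaves 2 mice against 2. A call lost there, or on leaving out 1 mouse, may also reflect the fewer mice, which was not tested. Markers of several cell types differed between groups. In the IL-33 mice all 6 eosinophil markers tested and all 7 neutrophil markers rose, as did 6 of 7 macrophage markers, whose summed FPKM went from 260 to 293 in PBS mice to 4283 to 4877. All 5 dividing cell markers rose (7.11 to 11.5 summed FPKM in PBS, 69.2 to 81.9 in IL-33 and 28.0 to 35.5 in IL-33+LM8 mice), while 3 of 3 club cell, 3 of 5 alveolar type 2 and 5 of 5 red cell markers fell, the last from 7847 to 9293 to 2539 to 3188, with 10885 to 12337 in IL-33+LM8 mice. The part of these cells in the members' levels was not tested. In bulk lung, a different number of cells and a different amount of RNA per cell cannot be told apart, for any gene described here.

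IL-33 raised a large share of the nuclear oxidative phosphorylation genes by small amounts. Of the 82 members tested, 38 rose and 4 fell (edgeR quasi-likelihood test, Benjamini-Hochberg adjusted p under 0.05 over all genes tested), whereas 27.4% of all 16831 genes tested rose and 27.2% fell. The median log2 fold change was 0.24 over the members and -0.01 over all genes, and 66 members lay above 0 against 16 below. Few changes reached 2-fold: Cox5a, Cox5b and Uqcrfs1 upward, and Cox6a2 and Cox7a1 downward, where 10.8% and 6.24% of all genes passed the same limit. Without the 3 deepest libraries the median was 0.25, 33 members rose and 4 fell. Of the 42 calls 29 held on leaving out each mouse in turn. The plot of fold changes by complex shows small rises in most complexes, the ATP synthase subunits grouped highest, and complex IV spread widest.

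**Figure D1:**
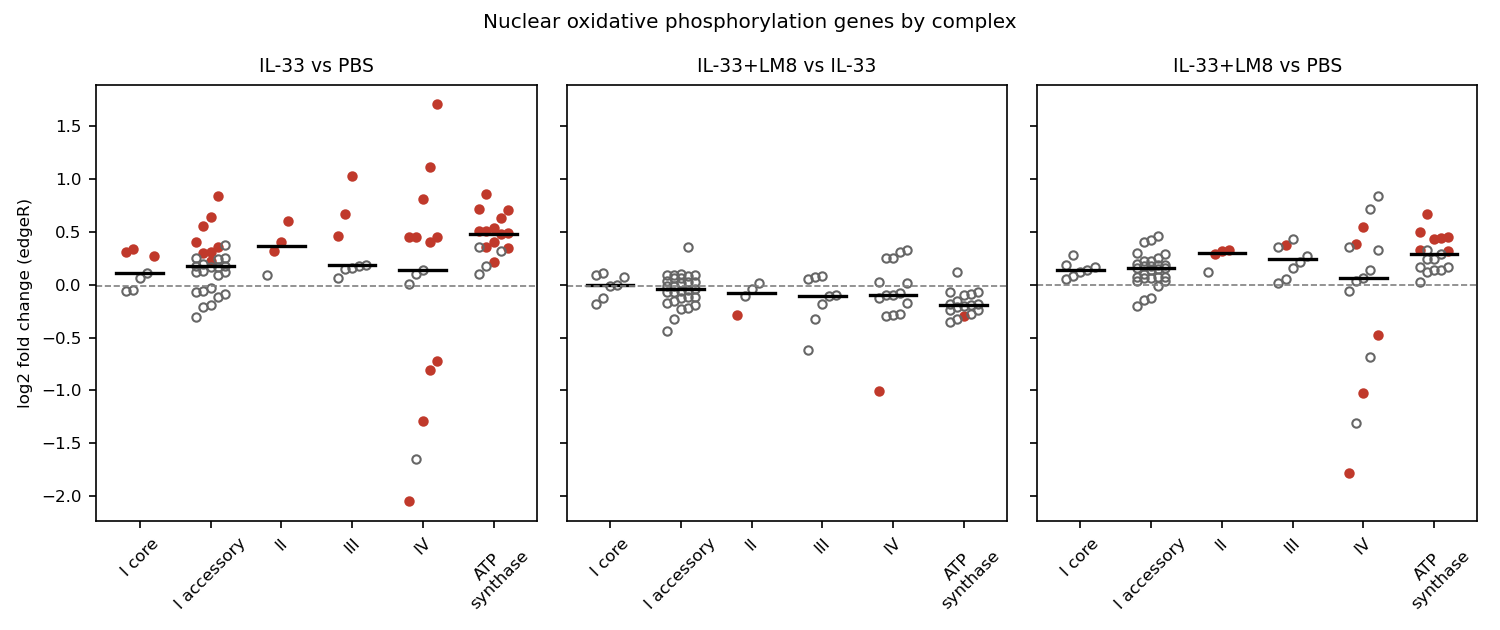
Log2 fold change (vertical axis, edgeR) of each tested member, by complex, in the 3 comparisons. Filled red points passed an adjusted p of 0.05 and open points did not, black bars are medians of the complex, and the dashed line is the median of all genes tested; in IL-33 vs PBS the ATP synthase median was 0.48 and that of complex I core subunits 0.11.

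Most ATP synthase subunits rose. In the summed FPKM of its 17 subunits the PBS mice stood at 538, 604 and 553, the IL-33 mice at 773, 808 and 800, and the IL-33+LM8 mice at 661, 786 and 707. The IL-33 group thus lay wholly above the PBS group, with a ratio of means of 1.41. Of the 17 genes 13 rose (76.5%, against 27.4% of all genes) and 0 fell (0 also by DESeq2, limma and at an unadjusted p under 0.05). The median log2 fold change was 0.48. In 16 of the 17 genes no IL-33 mouse overlapped a PBS mouse (31.7% of all genes were above PBS in this way). The catalytic head showed it plainly: Atp5a1, the alpha subunit and the most abundant member by FPKM, measured 141, 159 and 137 FPKM in PBS and 189, 197 and 195 in IL-33 mice. Its log2 fold change was 0.41 ± 0.07 (SE, n = 3 per group, edgeR adjusted p = 0.002). Atp5b, the beta subunit, rose by 0.51 ± 0.06 on the log2 scale (edgeR adjusted p = 0.00034). Atp5c1, the gamma subunit of the central stalk, rose by 0.48 ± 0.05 on the log2 scale (edgeR adjusted p = 0.0002), and these calls held on leaving out each mouse.

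In the peripheral stalk, Atp5pb (subunit b) measured 27.4, 32.8 and 30.1 FPKM in PBS mice and 51.5, 51.0 and 46.7 in IL-33 mice. Its log2 fold change was 0.72 ± 0.07 (edgeR adjusted p = 0.00014). Atp5pb overlaps Wdr77 by 731 bases and Gm42890 by 597, both on the other strand. Wdr77 had 2153 to 2733 counts in PBS and 2502 to 3028 in IL-33 mice, against 7327 to 9493 and 10788 to 14452 for Atp5pb. Atp5pb also shares 5.53% of its 75-base stretches with Gm12231, so its count is uncertain. Atp5d, the delta subunit, showed the largest fold change of the complex, with 21.3, 35.1 and 38.0 FPKM in PBS and 51.3, 61.9 and 58.6 in IL-33 mice. That gave a log2 fold change of 0.86 ± 0.20 (edgeR adjusted p = 0.0085), with PBS replicate 1 the lowest mouse. Atp5d overlaps Cbarp on the other strand by 734 bases, and Cbarp had 1217 to 1311 counts in PBS and 741 to 1103 in IL-33 mice. Of the 3 genes for the identical c-ring subunit, Atp5g2 and Atp5g3 rose by 0.71 and 0.63 on the log2 scale, while Atp5g1 had a log2 fold change of 0.10 (adjusted p = 0.54). Atp5g2 shares 35.8% of its 75-base stretches with other transcripts, among them Gm10175, so its count is uncertain.

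Complex I is the largest complex. Its 36 subunits summed to 604, 652 and 574 FPKM in PBS mice, 649, 724 and 703 in IL-33 mice and 634, 731 and 640 in IL-33+LM8 mice, and the IL-33 and PBS groups overlapped. Among its members 3 of 7 core and 8 of 29 accessory subunits rose by edgeR and 0 fell, against 1 lower at an unadjusted p under 0.05 and 0 by DESeq2 or limma. The 11 that rose were 30.6% of the complex, near the 27.4% of all genes. Leaving out 1 mouse gave 1 to 3 core subunits higher (1 without PBS replicate 1 or IL-33 replicate 2) and 5 to 9 accessory ones (5 without IL-33 replicate 2 or 3), with 1 accessory subunit lower without PBS replicate 1. Ndufs8 and Ndufv2, iron-sulphur core subunits, rose by 0.31 and 0.27 on the log2 scale. The Ndufs8 call was lost without PBS replicate 1 or 3 or IL-33 replicate 2 or 3 (highest edgeR adjusted p = 0.1), and that of Ndufv2 without PBS replicate 1 or IL-33 replicate 2 (0.052). Ndufb1, a small membrane-arm accessory subunit, had the largest rise of the complex, from 2.00, 2.87 and 2.46 to 3.95, 5.14 and 4.02 FPKM, a log2 fold change of 0.84 ± 0.20 (edgeR adjusted p = 0.011). It overlaps Cpsf2 on the other strand by 1081 bases in the table, and the strand setting of the counting is not stated. Cpsf2 had 2661 to 3302 counts in PBS and 3251 to 4460 in IL-33 mice, against 152 to 219 and 262 to 373 for Ndufb1, so that the rise of Ndufb1 is uncertain. Ndufb11, the most abundant accessory subunit, did not pass (log2 fold change 0.13 ± 0.07, edgeR adjusted p = 0.16). ATP synthase made up 47.1% to 49.1% of the summed FPKM of ATP synthase and complex I in PBS mice and 52.7% to 54.4% in IL-33 mice, without overlap. This difference between complexes was not tested.

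In complex II, 3 of the 4 subunits rose (75%, against 27.4% of all genes). Sdhd, a membrane anchor of succinate dehydrogenase, measured 51.8, 55.2 and 45.9 FPKM in PBS and 77.2, 78.3 and 76.1 in IL-33 mice (log2 fold change 0.60 ± 0.07, edgeR adjusted p = 0.00038). Sdhb, the iron-sulphur subunit, and Sdhc, the other anchor, rose by 0.41 and 0.32 on the log2 scale. Sdha, the flavoprotein, had a log2 fold change of 0.09 ± 0.05 (edgeR adjusted p = 0.18), and did not pass. The IL-33 mice were nearly identical to each other in the summed level of the complex, at 200, 200 and 199 FPKM, against 154, 164 and 148 in PBS mice.

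In complex III, 3 of 8 subunits rose (37.5%, against 27.4% of all genes): Uqcrfs1, Uqcrq and Uqcrc1. Uqcrfs1, the Rieske iron-sulphur protein, measured 16.1, 20.6 and 36.7 FPKM in PBS, 60.6, 33.5 and 55.9 in IL-33 and 21.2, 25.2 and 51.3 in IL-33+LM8 mice. The IL-33 and PBS groups overlapped for it, through PBS replicate 3 and IL-33 replicate 2, and the deepest library of each group was its highest mouse. Its log2 fold change was 1.03 ± 0.33 (edgeR adjusted p = 0.033), and the call was lost, with adjusted p between 0.085 and 0.1, on omitting any of these mice: PBS 1, PBS 2, IL-33 1 and IL-33 3. Without the 3 deepest libraries it was 1.29 (edgeR adjusted p = 0.0062). Uqcrq and Uqcrc1, a small subunit and a core protein, rose by 0.67 and 0.46 on the log2 scale, with IL-33 groups wholly above PBS. Uqcrc2, the other core protein and the most abundant of the complex, stood at 42.7 to 45.2 FPKM in PBS and 45.4 to 46.9 in IL-33 mice (log2 fold change 0.06 ± 0.04, edgeR adjusted p = 0.25).

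**Figure D2:**
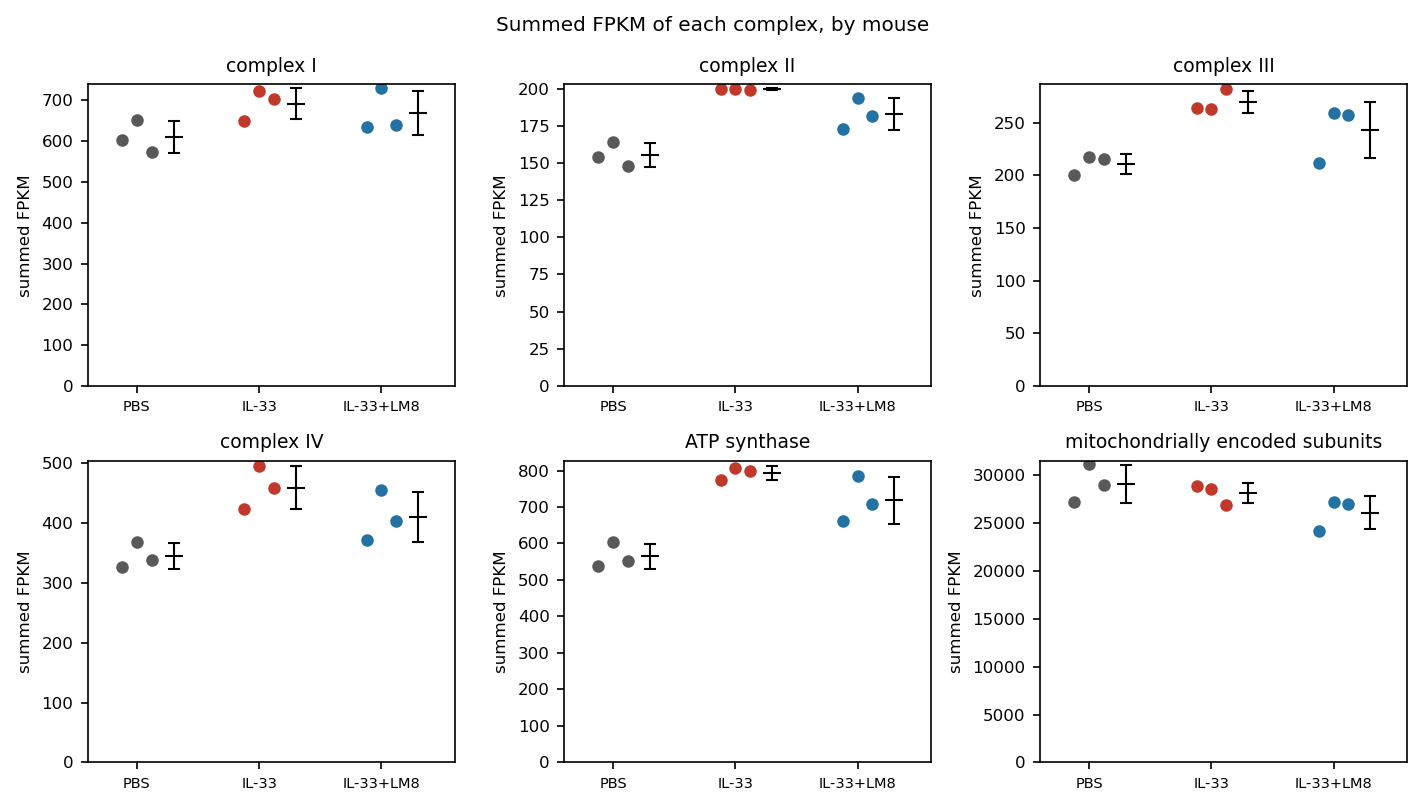
Summed FPKM of each complex and of the mitochondrially encoded subunits, by mouse (points, replicates 1 to 3 from left to right), with the mean and SD of each group (n = 3). ATP synthase stood at 538 to 604 in PBS and 773 to 808 in IL-33 mice, whereas the mitochondrially encoded sum overlapped between these groups.

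Complex IV had subunits called in both directions. Of its 15 subunits 7 rose (46.7%, against 27.4% of all genes) and 4 fell. The share that fell, 26.7%, was near the 27.2% of all genes. The 4 that fell, Cox7a1, Cox6a2, Ndufa4l2 and Cox6b2, are all paralogues known from particular tissues or conditions. Without IL-33 replicate 2 only 2 fell. Cox5a, a nuclear subunit of the enzyme's matrix side, had the largest rise of all members: 4.52, 3.76 and 10.9 FPKM in PBS and 21, 19.2 and 22.7 in IL-33 mice. PBS replicate 3, the deepest PBS library, was the highest PBS mouse, and all IL-33 mice lay above it. Its log2 fold change was 1.71 ± 0.38 (edgeR adjusted p = 0.0069), held on leaving out each mouse, and was 2.33 without PBS replicate 3 and 2.34 without the 3 deepest libraries. The gene, Ensembl identifier ENSMUSG00000000088, lies on chromosome 9 at 57428557 to 57439709 in the table, which names no build, and overlaps Gm26631 on the other strand, a gene with only 24 to 46 counts per mouse.

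Cox5b, another matrix-side subunit, measured 6.67, 12.2 and 16.8 FPKM in PBS and 24.0, 25.5 and 28.1 in IL-33 mice, a log2 fold change of 1.12 ± 0.29 (edgeR adjusted p = 0.014). It shares 7.42% of its 75-base stretches with Gm11273, so its count is uncertain. Cox8a, the ubiquitous form of the smallest subunit, measured 43.5, 65.7 and 61.8 FPKM in PBS and 93.0, 111 and 95.6 in IL-33 mice (log2 fold change 0.81 ± 0.15, edgeR adjusted p = 0.0034). Cox6a1, the most abundant member of the complex, measured 79.0, 92.0 and 75.1 FPKM in PBS and 98.4, 125 and 113 in IL-33 mice (log2 fold change 0.45 ± 0.11, edgeR adjusted p = 0.011). Cox6b1, Cox7b and Cox7c rose by 0.45, 0.45 and 0.41 on the log2 scale, again with no overlap. Cox7c shares 19.6% of its stretches with Gm10012 and Gm12338, and Cox6a1 4.58% with another transcript, so these counts are uncertain too. Cox6c, Cox7a2 and Ndufa4 did not pass, with log2 fold changes of 0.10, 0.14 and 0.01.

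**Figure D3:**
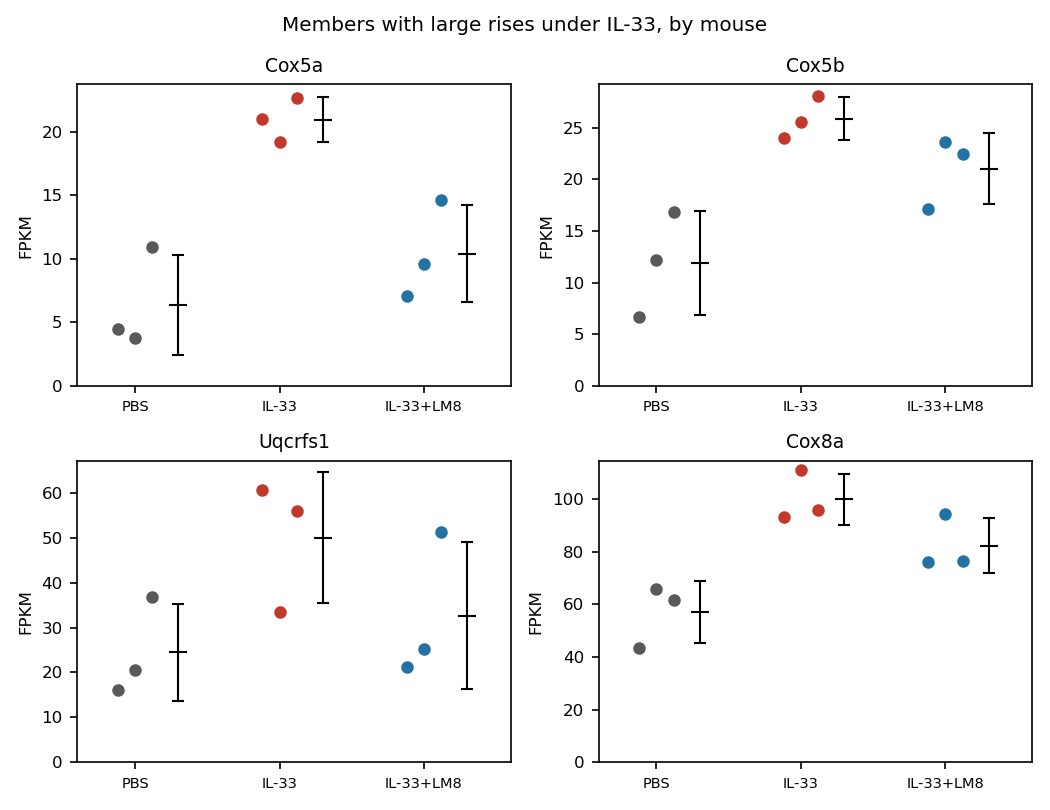
FPKM of Cox5a, Cox5b, Uqcrfs1 and Cox8a by mouse (points, replicates 1 to 3 from left to right), with mean and SD of each group (n = 3). Cox5a stood at 3.76 to 10.9 in PBS and 19.2 to 22.7 in IL-33 mice, and Uqcrfs1 overlapped between all groups.

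In the Cox6a and Cox6b pairs the ubiquitous form rose and the tissue form fell by the test, while in the Cox7a and Ndufa4 pairs only the tissue or condition form passed, and in the Cox8 pair only the ubiquitous form. Cox7a1, the heart and muscle form of subunit 7a, measured 3.11, 2.76 and 2.46 FPKM in PBS and 0.620, 0.797 and 0.563 in IL-33 mice. That was the largest fall among the members that passed, with a log2 fold change of -2.05 ± 0.27 (edgeR adjusted p = 0.0006), on counts of 96 to 110 and 17 to 28 per mouse. Its share of the FPKM of Cox7a1 and Cox7a2 went from 8.77%, 8.17% and 8.91% to 2.07%, 2.21% and 1.67%. Cox6a2, the heart and muscle form of subunit 6a, measured 9.04, 7.36 and 10.2 FPKM in PBS and 5.54, 3.25 and 2.06 in IL-33 mice (log2 fold change -1.29 ± 0.35, edgeR adjusted p = 0.017). This call was lost without IL-33 replicate 2 (edgeR adjusted p = 0.058). Cox8b, the muscle form of subunit 8, had counts of 42, 15 and 41 in PBS and 24, 0 and 5 in IL-33 mice, and its groups overlapped (log2 fold change -1.65 ± 0.96, edgeR adjusted p = 0.19). It passed without the 3 deepest libraries, at -3.31 (edgeR adjusted p = 0.046), and without IL-33 replicate 1, at -3.39 (edgeR adjusted p = 0.035). Both refits left IL-33 counts of only 0 and 5. Mean FPKM of Cox8b was 1.28 in PBS, 0.396 in IL-33 and 0.492 in IL-33+LM8 mice. It thus reached the 0.5 FPKM limit through the PBS mice, in which it was higher, and these refits are not support for a fall.

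Markers of heart muscle fell as well. Of 10 cardiomyocyte markers 9 fell, the median log2 fold change of the list was -1.75, and its summed FPKM was 289 to 302 in PBS, 71.8 to 106 in IL-33 and 98.8 to 149 in IL-33+LM8 mice, with none of the 10 at 0 in any group. Of the skeletal muscle markers 1 of 3 tested fell, with sums of 7.26 to 8.87, 3.14 to 4.41 and 3.24 to 4.88 FPKM, Myh4 being at 0 in PBS and IL-33 mice and Myh1 in IL-33+LM8 mice. Brown adipocyte markers summed to 5.21 to 5.91, 2.53 to 3.54 and 3.84 to 4.99 FPKM with 2 of 3 tested lower in IL-33 mice and Ucp1 at 0 in PBS mice. The part of these cells in the fall of Cox7a1 and Cox6a2, and in the values of Cox8b, which did not pass, was not tested.

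Ndufa4l2, a paralogue of the complex IV subunit Ndufa4 known from pericytes and from low oxygen, measured 21.2, 21 and 20.8 FPKM in PBS, 13.2, 10.8 and 12 in IL-33 and 14.3, 14.7 and 15.7 in IL-33+LM8 mice. The IL-33 mice all lay below the PBS mice, and its log2 fold change was -0.81 ± 0.10 (edgeR adjusted p = 0.00033). Its share of the FPKM of Ndufa4 and Ndufa4l2 was 41.4% to 45.5% in PBS and 27.4% to 33.6% in IL-33 mice. Cox4i2, the lung form of subunit 4, falls outside the naming rule and moved alike: 43.8, 49.9 and 42.9 FPKM in PBS, 26.1, 23.6 and 25.5 in IL-33 and 35.1, 32.3 and 28.6 in IL-33+LM8 mice. Its log2 fold change was -0.86 ± 0.08 (edgeR adjusted p = 0.00012), and that of its partner Cox4i1 was 0.49 ± 0.11 (edgeR adjusted p = 0.008). The 8 markers of pericytes and vascular smooth muscle were mixed, with 2 higher and 3 lower. They had a median log2 fold change of -0.26, with 3 above 0 and 5 below. They summed to 251 to 270 FPKM in PBS and 295 to 309 in IL-33 mice. Their part in the 2 genes was not tested.

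Cox6b2, the testis form of subunit 6b, measured 8.49, 5.33 and 5.10 FPKM in PBS and 3.31, 3.90 and 4.27 in IL-33 mice (log2 fold change -0.72 ± 0.24, edgeR adjusted p = 0.037). PBS replicate 1 was the highest mouse, and without it the log2 fold change was -0.44. The call was lost on leaving out this mouse or any IL-33 mouse, with edgeR adjusted p between 0.062 and 0.11, without the 3 deepest libraries (0.063) and without a filter on low values (0.068). Male germ cell markers were at 0 to 3.47 summed FPKM in PBS and 0.299 to 3.92 in IL-33 mice, and of the 2 tested 0 passed (edgeR). In FPKM the partner exceeded the tissue form in every mouse for Cox6a, Cox6b, Cox7a, Cox8, Ndufa4 and Cox4.

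**Figure D4:**
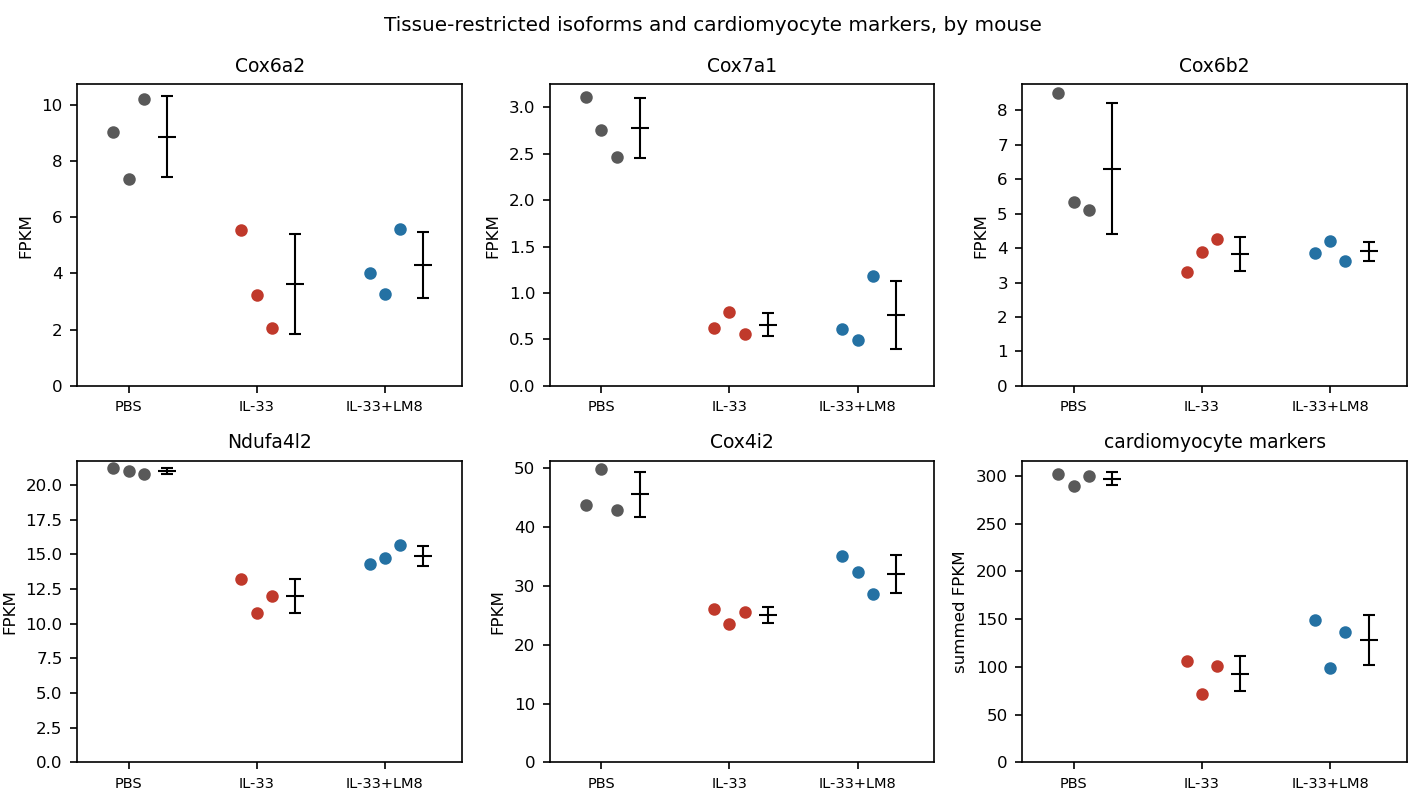
FPKM of 5 paralogues and summed FPKM of 10 cardiomyocyte markers by mouse (points, replicates 1 to 3 from left to right), with mean and SD of each group (n = 3). The genes are the 4 complex IV members that fell and Cox4i2. For all 5 genes and for the markers every IL-33 mouse lay below every PBS mouse, as did 31.7% of all genes. Cox8b, whose groups overlapped, is not shown. Cox7a1 went from 2.46 to 3.11 in PBS to 0.563 to 0.797 in IL-33 mice.

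The promoters of the Cox7a and Cox8 pairs also differ in letters, which the naming rule did not use. Other paralogues, Cox6b2 among them, are not compared here. RefSeq (GRCm38.p6) gave a promoter for 68 of the 85 members, Cox6a2 and Ndufa4l2 not among them, and the 250 bases before the start were read. CG dinucleotides are dense in the promoters of many widely expressed genes. The median count was 14 CG over the members and 6 over the 27025 genes with a promoter, and Cox8b (1) and Cox7a1 (4) had the fewest among the members besides Ndufc2 (4). The muscle forms and their ubiquitous partners are shown with each CG in capitals: Cox7a2 at chr9:79759854-79760103 (minus strand, 14 CG), Cox7a1 at chr7:30183921-30184170 (plus strand), Cox8a at chr19:7217617-7217866 (minus strand, 11 CG) and Cox8b at chr7:140900447-140900696 (minus strand).
Cox7a2: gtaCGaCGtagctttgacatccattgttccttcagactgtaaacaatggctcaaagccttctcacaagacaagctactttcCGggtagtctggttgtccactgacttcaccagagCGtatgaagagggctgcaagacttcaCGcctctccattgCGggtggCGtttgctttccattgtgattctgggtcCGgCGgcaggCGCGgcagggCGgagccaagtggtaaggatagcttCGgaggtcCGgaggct
Cox7a1: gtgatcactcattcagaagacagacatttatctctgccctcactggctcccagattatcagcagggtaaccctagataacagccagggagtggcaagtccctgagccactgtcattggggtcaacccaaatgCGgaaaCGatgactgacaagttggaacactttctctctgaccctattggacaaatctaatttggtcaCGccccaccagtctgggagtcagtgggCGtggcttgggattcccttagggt
Cox8a: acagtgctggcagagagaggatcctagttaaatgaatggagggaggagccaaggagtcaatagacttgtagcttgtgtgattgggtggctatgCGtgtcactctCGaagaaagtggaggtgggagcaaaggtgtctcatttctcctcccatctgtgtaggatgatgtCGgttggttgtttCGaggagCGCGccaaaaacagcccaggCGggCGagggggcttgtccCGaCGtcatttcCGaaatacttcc
Cox8b: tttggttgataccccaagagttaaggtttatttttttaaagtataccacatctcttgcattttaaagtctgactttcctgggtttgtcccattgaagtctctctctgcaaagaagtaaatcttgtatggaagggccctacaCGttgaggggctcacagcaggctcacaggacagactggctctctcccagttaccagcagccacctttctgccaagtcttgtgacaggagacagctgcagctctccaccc

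Motifs of 3 factor families known at respiratory genes were searched on both strands: a palindrome of 10 bases for NRF1, CCGGAAG for ETS factors and AAGATGGCG for YY1. The NRF1 string was found in 4 members, Atp5g2, Atp5k, Cox6a1 and Ndufa11 (5.88% against 0.877% of all genes with a promoter), the ETS string in 12 (17.6% against 7.83%) and the YY1 string in 1, Atp5j (1.47% against 0.71%). Split by call in IL-33 vs PBS, a split made after the calls were known, NRF1 stood in 4 of 34 members that rose and 0 of 32 that did not pass, ETS in 8 and 4, and YY1 in 0 and 1. These small counts carry no test. Cox6a1 at chr5:115348959-115349208 (minus strand), which holds both the NRF1 and the ETS string, and Atp5g2 at chr15:102671048-102671297 (minus strand) are shown as examples with the matched letters in capitals, the run of 10 being the NRF1 palindrome.
Cox6a1: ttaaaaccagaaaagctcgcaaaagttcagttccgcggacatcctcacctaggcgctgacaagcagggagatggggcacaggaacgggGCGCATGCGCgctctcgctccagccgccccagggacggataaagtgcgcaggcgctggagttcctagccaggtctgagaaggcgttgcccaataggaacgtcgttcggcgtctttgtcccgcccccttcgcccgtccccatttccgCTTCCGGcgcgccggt
Atp5g2: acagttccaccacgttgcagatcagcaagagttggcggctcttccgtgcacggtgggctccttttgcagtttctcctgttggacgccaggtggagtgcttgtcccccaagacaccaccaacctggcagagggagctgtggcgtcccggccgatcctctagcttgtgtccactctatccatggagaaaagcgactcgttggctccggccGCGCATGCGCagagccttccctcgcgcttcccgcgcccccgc

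Of the 13 subunits encoded by mitochondrial DNA 0 rose and 4 fell in IL-33 mice by edgeR (1 rose by DESeq2, 0 by limma and 0 at an unadjusted p under 0.05). The share that fell, 30.8%, was near the 27.2% of all genes. Without IL-33 replicate 1, or without the 3 deepest libraries, 2 fell, and without PBS replicate 2 1 rose. The median log2 fold change was -0.06, and the largest fall was mt-Nd2, a complex I subunit, from 1766, 1891 and 1886 to 1494, 1404 and 1389 FPKM (log2 fold change -0.37 ± 0.06, edgeR adjusted p = 0.0014). The nuclear members made up 6.48%, 6.25% and 6.11% of the summed FPKM of nuclear and mitochondrial subunits in PBS mice and 7.61%, 8.23% and 8.55% in IL-33 mice, without overlap. Of 6 nuclear subunits and partners outside the naming rule 4 rose (66.7%, against 27.4% of all genes) and 1, Cox4i2, fell (16.7%, against 27.2%). Cyc1, cytochrome c1 of complex III, had the largest rise of them (0.61 ± 0.11, edgeR adjusted p = 0.0024).

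Other mitochondrial genes were mixed. Of 47 assembly factors 5 rose (10.6%, against 27.4% of all genes) and 3 fell (6.38%, against 27.2%), with a median log2 fold change of 0.06. These counts depended on single mice: 2 rose without IL-33 replicate 1 or 3, 3 without the 3 deepest libraries, 0 fell without PBS replicate 2 and 1 without IL-33 replicate 2. The largest rise was Cox18, which inserts a mitochondrially encoded complex IV subunit (0.63 ± 0.23, edgeR adjusted p = 0.048), a call lost on leaving out PBS replicate 1 or 3 or IL-33 replicate 1 or 3 (highest 0.14) and without the 3 deepest libraries (0.13). The largest fall was Ndufaf7, a complex I assembly factor (-0.36 ± 0.10, edgeR adjusted p = 0.019), a call lost without PBS replicate 2 or IL-33 replicate 1 or 2 (highest 0.066). Of 13 citrate cycle enzymes 4 rose, a share of 30.8% near the 27.4% of all genes, and 1 fell (7.69%, against 27.2%). The largest rise among them was Mdh2, mitochondrial malate dehydrogenase (0.62 ± 0.05, edgeR adjusted p = 7.1e-05). The 1 that fell was Sucla2, an ATP-forming succinyl-CoA ligase subunit (-0.29 ± 0.07, edgeR adjusted p = 0.012). The Sucla2 call did not survive omitting IL-33 replicate 2 (0.055) or the 3 deepest libraries (0.054). Of 14 biogenesis regulators 5 rose (35.7%, against 27.4% of all genes). Ppargc1b, a coactivator of mitochondrial genes, had the largest rise of them (log2 fold change 2.34 ± 0.22, edgeR adjusted p = 0.0001). It stood at 0.278, 0.371 and 0.233 FPKM in PBS and 1.47, 1.56 and 1.48 in IL-33 mice. Its PBS values were all under the 0.5 FPKM limit, and it was tested through mice in which it was higher. Of 15 carriers and import genes 9 rose (60%) and 1 fell (6.67%), against 27.4% and 27.2% of all genes. The ADP/ATP carriers moved in opposite directions: Slc25a5, the widely expressed form, rose by 0.83 ± 0.06 (edgeR adjusted p = 2.5e-05), and Slc25a4, the heart and muscle form, fell by 0.17 on the log2 scale (edgeR adjusted p = 0.038), a call lost on leaving out PBS replicate 2 or 3 or any IL-33 mouse (highest 0.17).

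**Figure D5:**
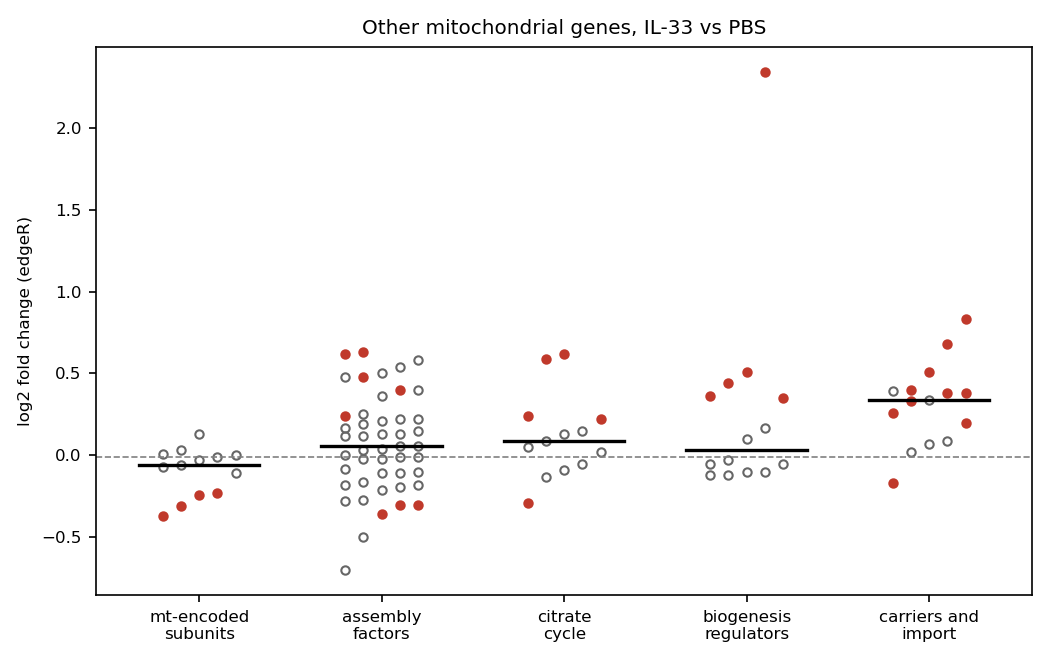
Log2 fold change (vertical axis, edgeR) in IL-33 vs PBS of each tested gene of 5 lists of mitochondrial genes. Filled red points passed an adjusted p of 0.05, open points did not, black bars are list medians (-0.06 for mitochondrially encoded subunits) and the dashed line is the median of all genes; the single high point is Ppargc1b.

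Adding LM8 to IL-33 changed few members. Against IL-33 alone, Cox5a, Sdhd, Atp5pb and Cox7a2l fell and 0 of the 82 rose by edgeR, where 12.6% of all 16831 genes rose and 13.9% fell. At an unadjusted p under 0.05 2 members rose and 13 fell, DESeq2 called 2 and 7, and limma 1 and 7. Only Cox5a fell by 2-fold or more and 0 members rose so far, where 3.93% and 1.46% of all genes did. The median log2 fold change was -0.10, with 55 members below 0 and 27 above. Cox5a stood at 21, 19.2 and 22.7 FPKM in IL-33 and 7.06, 9.60 and 14.6 in IL-33+LM8 mice (log2 fold change -1.01 ± 0.24, edgeR adjusted p = 0.019). Omitting IL-33 replicate 1 (0.051), its replicate 3 (0.067) or IL-33+LM8 replicate 2 (0.056) ended the call, which held without the 3 deepest libraries (-1.32, edgeR adjusted p = 0.01). Cox7a2l, the supercomplex factor, measured 67.0, 67.0 and 66.0 FPKM in IL-33 and 55.6, 52.4 and 51.6 in IL-33+LM8 mice, a log2 fold change of -0.33 ± 0.05 (edgeR adjusted p = 0.0027), and 51.3, 63.7 and 54.2 in PBS mice. It shares 10.4% of its 75-base stretches with Gm6969, so its count is uncertain, and its call in this comparison was lost without the 3 deepest libraries (0.08). Against PBS, IL-33 alone gave a rise of 0.24 ± 0.08 for it (edgeR adjusted p = 0.035), a call lost on leaving out PBS replicate 1 or 3 or any IL-33 mouse (highest 0.095) and without the 3 deepest libraries (0.15).

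Sdhd went from 77.2, 78.3 and 76.1 to 58.4, 70.4 and 61.1 FPKM (log2 fold change -0.29 ± 0.08, edgeR adjusted p = 0.034), and Atp5pb from 51.5, 51.0 and 46.7 to 36.2, 44.2 and 40.7 (-0.30 ± 0.08, edgeR adjusted p = 0.035). Both calls were lost without the 3 deepest libraries (each at 0.21). Leaving out any mouse but IL-33+LM8 replicate 2 ended the calls of Sdhd (highest 0.11) and Atp5pb (highest 0.1). IL-33+LM8 replicate 2 was the highest of its group in the summed FPKM of all members (2117, 2486 and 2249, against 2383 to 2566 in IL-33 mice), and without it 12 members fell. Leaving out any other mouse gave 1 to 3. Ndufa4l2 had a log2 fold change of 0.31 ± 0.10 (edgeR adjusted p = 0.064), and passed under DESeq2, both limma fits, upper-quartile factors and the fit of all 9 mice. Outside the rule Cox4i2 rose by 0.35 ± 0.10 (edgeR adjusted p = 0.032), a call lost without the 3 deepest libraries (0.059) and on leaving out any mouse but IL-33+LM8 replicate 3 (highest 0.1). The tissue paralogues Cox7a1, Cox6a2, Cox6b2 and Cox8b had log2 fold changes of 0.25, 0.25, 0.03 and 0.33 with adjusted p of 0.68, 0.68, 0.94 and 0.88. Cardiomyocyte markers rose in 3 of 10 cases, and red cell (5 of 5) and club cell markers (3 of 3) rose. Of the 8 markers of pericytes and vascular smooth muscle 4 rose and 1 fell. Eosinophil markers (6 of 6 tested) and dividing cell markers (5 of 5) fell, and neutrophil markers (7 of 7) rose, from 188 to 211 to 871 to 1019 summed FPKM, and the part of these cells in the members' levels was not tested.

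Ppargc1b was lower than in IL-33 mice, at 1.02, 0.483 and 0.673 FPKM (log2 fold change -1.05 ± 0.27, edgeR adjusted p = 0.026), a call lost without the 3 deepest libraries (0.15) and on leaving out any IL-33 mouse or IL-33+LM8 replicate 3 (highest 0.085). Ndufaf7 rose by 0.44 ± 0.09 (edgeR adjusted p = 0.010), a call lost without the 3 deepest libraries (0.1). Of the mitochondrially encoded subunits 0 passed by edgeR or limma, 1 rose and 3 fell by DESeq2 and the same numbers at an unadjusted p under 0.05, with a median log2 fold change of -0.06. Among the carriers Vdac1, Vdac2 and Slc25a3, outer-membrane channels and the phosphate carrier, fell by 0.25, 0.24 and 0.37 on the log2 scale. Each of these calls was lost on omitting the second or the third IL-33 mouse, and others besides. The IL-33 group is shared with the comparison against PBS, so an opposite direction in the 2 comparisons is not independent evidence.

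Against PBS, the IL-33+LM8 mice had members called in both directions. Of the 82 tested 13 rose and 3 fell, where 16.3% of all 16829 genes tested rose and 13.4% fell, so the share that rose, 15.9%, was near that of all genes, and the 16 called in either direction compare with 29.7%. The median log2 fold change was 0.17, with 71 members above 0 and 11 below, where 8476 of all genes lay above and 8353 below. In 27 members all IL-33+LM8 mice lay above all PBS mice (23.4% of all genes). At 2-fold or more Cox7a1 and Cox6a2 fell and 0 members rose, where 1.46% and 5.87% of all genes did. With the replicate number as a block 22 members rose. Same-numbered PBS and IL-33+LM8 mice deviated together, but so did PBS 1 with IL-33+LM8 2 (correlation 0.32) and PBS 2 with IL-33+LM8 1 (0.31). The number may therefore not be a pairing. Without the 3 deepest libraries 4 rose, and 5, 6, 4 and 5 rose on omitting PBS 1, PBS 3, IL-33+LM8 2 and IL-33+LM8 3 in turn. Calls over all genes became fewer as well. From 2741 higher they went to 1631 without the 3 deepest libraries, and to 1921 to 2086 on omitting these single mice. How much of the drop came from fewer mice was not tested. The 13 were 7 ATP synthase subunits, Sdhb, Sdhc and Sdhd, Uqcrc1, Cox6a1 and Cox8a, and 0 complex I subunits passed by edgeR, against 3 higher at an unadjusted p under 0.05, 2 by DESeq2 and 1 by limma. Of the 16 calls 5 held on leaving out each mouse, those of Atp5b, Atp5pb, Uqcrc1, Cox7a1 and Ndufa4l2. Atp5b rose by 0.43 ± 0.09 (edgeR adjusted p = 0.012) and Atp5pb by 0.44 ± 0.09 (edgeR adjusted p = 0.013). Cox5a had a log2 fold change of 0.72 ± 0.43 (edgeR adjusted p = 0.25), which passed with the block (0.81, edgeR adjusted p = 0.019), without PBS replicate 3 (1.34, edgeR adjusted p = 0.023) and without the 3 deepest libraries (1.02, edgeR adjusted p = 0.02). The 3 that fell were Cox7a1 (-1.78 ± 0.35, edgeR adjusted p = 0.0094), Cox6a2 (-1.03 ± 0.24, edgeR adjusted p = 0.018) and Ndufa4l2 (-0.48 ± 0.08, edgeR adjusted p = 0.0054). The Cox6a2 call was lost without PBS replicate 1 or 3 (each at 0.053) or IL-33+LM8 replicate 2 (0.051). Cardiomyocyte markers were lower than in PBS mice in 8 of 10 cases.

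Some members cannot be counted cleanly. Of the 85 members, 37 overlap another gene in the table's coordinates, 29 of them on the other strand. Ndufb4c, typed as a processed pseudogene, shares 100% of its 75-base stretches with other transcripts, Ndufb4 first, and stood at 7.31 to 8.99 FPKM in PBS and 5.58 to 9.46 in IL-33 mice (log2 fold change -0.12 ± 0.24, edgeR adjusted p = 0.71). Cox6a2 overlaps Itgad by 70 bases on the other strand, and had 79 to 258 counts in IL-33 mice, where Itgad had 22 to 53.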

How the data were processed

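Lung RNA of 9 mice was sequenced paired-end. The submitters' processing notes name HISAT2 2.0, StringTie 1.3.0 and Bowtie 0.12.2 with mm10, but the coordinates in the table differ from GRCm38. The authors deposited whole-number gene counts and FPKM values in one table, used as deposited. TPM values were FPKM rescaled here. Genes averaging 0.5 FPKM or more over the 9 mice, with a count above 0 in the mice compared, were tested on counts with edgeR 4.0.16 (quasi-likelihood, TMM, R 4.3.3), each comparison on its own 6 mice, with Benjamini-Hochberg adjustment at 0.05. A single gene by exact permutation of 3 against 3 cannot go below p = 0.1. The fit was tested on simulated data. Alternatives used DESeq2 1.42.0, limma 3.58.1 on log2(FPKM + 1) and log2(FPKM + 0.1), other filters and scalings, all 9 mice, each mouse left out, and a replicate block.

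The members and lists were chosen with earlier results of these data known. Named genes were the paralogue pairs, in each complex the most abundant member and the largest rise and fall that passed, every member past 2-fold, and the largest rise and fall of each other list; 1 gene named by this rule is not reported here. Ndufs8, Ndufv2, Sdha, Sdhb, Sdhc, Uqcrq, Uqcrc1, Cox7c, Cox6c, Atp5b, Atp5c1, the Atp5g genes, Vdac1, Vdac2 and Slc25a3 were named after their values were seen. The leaving out of the 3 deepest libraries, the group of pseudogene entries, the 75-base stretches (GENCODE M21 transcripts) and the 250-base window were also chosen after values were seen. Replicate numbers come from the sample titles. Same-numbered mice of PBS and IL-33+LM8 deviated together across genes (correlations 0.39, 0.43 and 0.73), so the block is given there. Some mice of different number also did: PBS 1 with IL-33+LM8 2 (0.32) and PBS 2 with IL-33+LM8 1 (0.31). Pairs of different number that held a replicate 3 were negative (-0.54 to -0.48), so the number may not be a pairing. In the other comparisons at least 1 of 3 same-numbered correlations was negative.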

Additional observations from a re-analysis of the deposited data

How the results depend on the processing

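Of 108 recounts of the members called, 80 stayed within 1.5 times the reported count. In IL-33 vs PBS, requiring 2-fold left 3 members higher and 2 lower, a mean FPKM of at least 5 left 2 lower, and leaving out 1 mouse gave 29 to 37 higher and 2 to 4 lower (2 without IL-33 replicate 2). In IL-33+LM8 vs IL-33, 1 member rose with upper-quartile factors, with either limma fit and in the fit of all 9 mice, and 2 rose with DESeq2. There 2 fell without the low-value filter, 7 with DESeq2 and with either limma fit, 1 without the 3 deepest libraries and 1 at 2-fold, and leaving out 1 mouse gave 0 to 1 higher and 1 to 12 lower. In IL-33+LM8 vs PBS, 22 rose with the replicate block, 4 without the 3 deepest libraries and 0 at 2-fold, and leaving out 1 mouse gave 4 to 15 higher and 2 to 3 lower. Same-numbered mice did not deviate together in the other comparisons (PBS and IL-33 correlations -0.53, 0.38 and -0.45), where the block gave 34 higher and 3 lower in IL-33 vs PBS and 0 and 5 in IL-33+LM8 vs IL-33.

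Of 1872 refits of single named genes, 39 changed sign, all of values that did not pass. In IL-33 vs PBS these were Ndufa4 (-0.01 at a mean FPKM of at least 5, -0.02 with upper-quartile factors and without the 3 deepest libraries, -0.06 to 0.07 on leaving out 1 mouse) and Ndufb4c (-0.31 to 0.07 on leaving out 1 mouse). In IL-33+LM8 vs IL-33, leaving out the 3 deepest libraries gave -0.01 for Cox6b2, -0.21 for Cox7a1, 0.03 for Ndufb11 and -0.02 for Ndufb4c. Leaving out 1 mouse there gave the ranges Cox6a1 -0.17 to 0.00, Cox6a2 -0.02 to 0.69, Cox6b2 -0.06 to 0.12, Cox7a1 -0.15 to 0.46, Cox7a2 -0.25 to 0.00, Cox8b -0.52 to 2.10, Ndufa4 -0.10 to 0.08, Ndufb11 -0.10 to 0.00, Ndufb4c -0.06 to 0.32 and Uqcrc2 -0.01 to 0.14. In IL-33+LM8 vs PBS, Ndufb4c was at -0.02 at a mean FPKM of at least 5, -0.00 with RLE factors and DESeq2, -0.03 with upper-quartile factors and without the 3 deepest libraries, and -0.01 with total counts and either limma fit. Leaving out 1 mouse here gave the ranges Cox7a2 -0.09 to 0.15, Cox7a2l -0.13 to 0.03, Ndufa4 -0.07 to 0.12, Ndufb4c -0.07 to 0.09 and Uqcrfs1 -0.05 to 0.84. The cause of these moves was not tested.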
